A study of Mus musculus with 4 samples.

Results

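Extracellular vesicles (EVs) released by 4TO7 cells were compared with the 4TO7 cells themselves by small RNA sequencing, with 1 library for each, out of 4 libraries in the series. The members are the 131 mature miRNAs with 50 or more sense reads of 18 nt or more in either library, out of 489 mature miRNAs with such a read in the 4TO7 libraries and 645 in the whole series. Of the 131, 60 reached 50 reads in both libraries, 10 in the EV library alone and 61 in the cell library alone. The genome clusters that the authors listed for the same libraries, 465 in EVs and 1171 in cells, were compared as well.

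The EV library holds RNA of vesicles that were spun out of culture medium by differential centrifugation with 2 rounds of ultracentrifugation. The cell library holds RNA of the cells. 4TO7 is an established mouse mammary carcinoma line, related to the 4T1 line of the other 2 libraries. It spreads to distant organs but rarely grows into visible metastases there. The labels name no genetic change and no drug for either, and both were cultured in DMEM whose fetal bovine serum had been freed of EVs. In both groups RNA was taken up in Trizol, depleted of ribosomal RNA and cut from a gel at miRNA size. With 1 library per group there is no replicate error and no test over samples: each call compares 2 libraries, and intervals and floors cover counting error only.

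MiRNAs are short RNAs cut from hairpin precursors by Drosha and Dicer and loaded into Argonaute proteins, where the seed near the 5' end pairs with target mRNAs. Cells release some of their miRNAs inside vesicles or bound to protein particles that sediment with vesicles, and the mix outside a cell can differ from the mix inside. In mammary tumours let-7 miRNAs are associated with differentiation, the miR-17-92 clusters with proliferation, and the miR-200 family with the epithelial state.

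Mature sequences of the miRNAs on which the results turn are given first, so that relatives can be compared base by base. They come from RefSeq (GRCm38.p6), which matched 111 of the 131 by name. All are written 5' to 3', and the capitals mark the seed, bases 2 to 8. The let-7 group carries the seed GAGGUAG and differs in a few bases outside it.
let-7a-5p: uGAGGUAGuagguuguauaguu
let-7c-5p: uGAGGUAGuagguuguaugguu
let-7b-5p: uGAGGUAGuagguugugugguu
let-7e-5p: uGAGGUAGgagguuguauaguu
let-7i-5p: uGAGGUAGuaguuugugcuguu
miR-98-5p: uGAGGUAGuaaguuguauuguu
let-7k: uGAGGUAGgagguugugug

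The next sequences belong to other miRNAs with high ratios of EVs to cells, and miR-125a-5p and miR-125b-5p share a seed, as do miR-10a-5p and miR-10b-5p.
miR-125a-5p: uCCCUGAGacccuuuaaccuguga
miR-125b-5p: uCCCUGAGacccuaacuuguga
miR-181a-5p: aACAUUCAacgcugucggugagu
miR-10b-5p: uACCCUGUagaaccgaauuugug
miR-10a-5p: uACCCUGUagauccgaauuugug
miR-128-3p: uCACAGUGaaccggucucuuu
miR-22-3p: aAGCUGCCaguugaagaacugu

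The last sequences carry the AAAGUGC seed of the miR-17-92 clusters or belong to miR-92a-3p and its relatives with the seed AUUGCAC. Both arms of the miR-31 hairpin and miR-21a-5p close the set. MiR-92a-3p, miR-25-3p and miR-31-5p were called neither, at log2 ratios of 1.40, -1.09 and -0.81, and the others were lower in EVs.
miR-17-5p: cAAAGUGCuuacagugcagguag
miR-20a-5p: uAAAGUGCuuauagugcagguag
miR-93-5p: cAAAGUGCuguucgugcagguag
miR-106b-5p: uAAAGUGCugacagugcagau
miR-92a-3p: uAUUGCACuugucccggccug
miR-25-3p: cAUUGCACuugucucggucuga
miR-32-5p: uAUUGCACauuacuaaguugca
miR-31-5p: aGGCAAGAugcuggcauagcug
miR-31-3p: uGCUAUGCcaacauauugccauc
miR-21a-5p: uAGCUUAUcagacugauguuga

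Sense miRNA alignments of 18 nt or more summed to 51697 in EVs and 177647 in cells, so 3 reads, the limit that a count of 0 allows, correspond to 58.0 RPM in EVs and 16.9 RPM in cells, where RPM stands for reads on the per-million scale of these alignments. They came from 32564 reads in EVs, 0.630% of its 5171514 genome-aligned reads, and from 122560 reads in cells, 1.09% of 11274041. A read was listed under each near-identical miRNA that it matched, with 1.59 alignments per read in EVs and 1.45 in cells, so the values of close relatives are not independent. MiRNAs of the miR-200 list, which mark epithelial cells, were near 0 for a line labelled as breast cancer: 5 of its members had any read, with 5 reads summed in EVs and 43 in cells. MiR-205-5p held 1 of these in EVs and 41 in cells. MiR-200c-3p had 0 reads in both.

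Calls rest on the exact 95% interval of the RPM ratio of EVs over cells: a miRNA counts as higher where the whole interval exceeds 2, and as lower where all of it is under 0.5. Of the 131, 22 were higher in EVs (16.8%), 50 were lower (38.2%) and 59 were neither. The median log2 ratio, with 0.5 reads added to each count, was -0.96 and the range -6.30 to 11.29. Higher calls were 30.6% of all calls. That share was 38.1% with TMM scaling (24 higher, 39 lower), 49.2% with median-of-ratios scaling (30 higher, 31 lower) and 16.05% with genome-aligned reads as the denominator (13 higher, 68 lower), which moved every log2 ratio by 0.31, 0.54 and -0.66. Just inside the minimum of 50 reads were miR-339-5p, miR-450b-5p and miR-669p-5p with 53, 58 and 61 reads in cells, and just outside were miR-21a-3p, miR-15b-3p and miR-466a-3p with 49. All 10 miRNAs that reached the minimum in EVs alone were called higher, and the 61 in cells alone were lower or neither. The minimum itself thus favoured a higher call for the 10 and a lower call for the 61. EVs had fewer alignments, so more miRNAs entered through cells, which favoured lower calls. With a minimum of 1 read, 46 of 489 were higher and 54 lower, with a median log2 ratio of -0.0936.

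**Figure D1:**
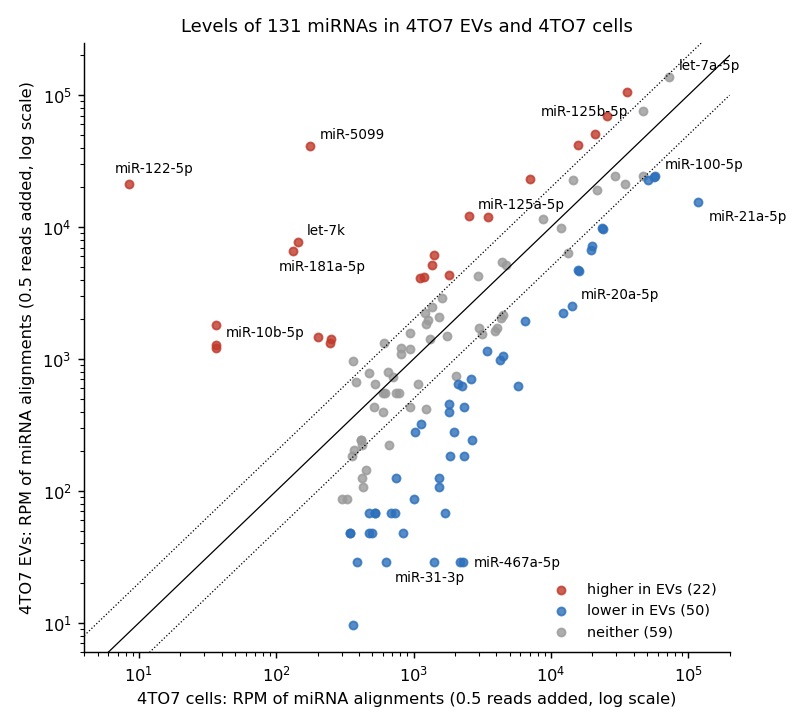
RPM of miRNA alignments in 4TO7 EVs (y axis) against 4TO7 cells (x axis) for 131 miRNAs, both on log scales with 0.5 reads added. Points are single miRNAs coloured by call, the solid line marks equal levels and the dotted lines a 2-fold difference; 22 points are higher in EVs and 50 lower.

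The 2 libraries were led by different miRNAs. Let-7a-5p led the EV library with 7102 reads, 13.7% of its miRNA alignments, against 12920 reads in cells. MiR-21a-5p, which is abundant in many tumours, had 794 reads in EVs and 21024 in cells, where it led with 11.8%. It was 7.71-fold lower in EVs (95% interval 7.18 to 8.28).

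Let-7 sequences made up more of the miRNA alignments in EVs than in cells. The let-7 and miR-98 list held 52.3% of the miRNA alignments in EVs and 32.3% in cells, with shared reads counted under each member. Of its 14 compared members 6 were higher, 1 was lower and 7 were neither, and their median log2 ratio was 0.80, against -0.96 over all compared miRNAs. The shares over all compared miRNAs were 16.8% higher and 38.2% lower. Let-7c-5p had 5491 reads in EVs and 6346 in cells, or 2.97-fold higher in EVs (2.87 to 3.08). Let-7b-5p had 3587 reads in EVs and 4564 in cells, or 2.70-fold higher in EVs (2.58 to 2.82). Let-7e-5p had 2166 in EVs and 2800 in cells, or 2.66-fold higher in EVs (2.51 to 2.81). These 3, with let-7d-5p (618 reads in each library, 3.44-fold, 3.07 to 3.85), stood above the most abundant member. Let-7a-5p itself reached 1.89-fold (1.83 to 1.94) and let-7f-5p 1.61-fold (1.55 to 1.68), so both were called neither. Let-7a-5p was called higher with TMM scaling (1.22 on the log2 scale) and with median-of-ratios scaling (1.46), and let-7f-5p with the second of these (1.23). The higher calls of let-7b-5p, let-7c-5p, let-7d-5p and let-7e-5p were not kept when divided by genome-aligned reads, at log2 ratios of 0.78, 0.92, 1.12 and 0.75. The list then had 2 higher and 2 lower members, against 7 higher and 0 lower with TMM and 8 higher and 0 lower with median-of-ratios scaling.

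At the other side of the family, let-7i-5p had 1265 reads in EVs and 8316 in cells, 1.91-fold below the cell level (1.80 to 2.03), which is neither here and lower when divided by genome-aligned reads. Let-7i-5p differs from let-7a-5p at 4 of 22 bases, whereas let-7c-5p differs at 1 and at none of the first 18, so reads of 18 nt cannot separate let-7a-5p from let-7c-5p. Let-7g-5p (986 reads in EVs, 3872 in cells) had a log2 ratio of -0.19 and was neither. Let-7j, whose seed in RefSeq is GAGGUAU rather than GAGGUAG, was the member called lower. It had 1183 reads in EVs and 9076 in cells (2.23-fold, 2.10 to 2.37). Over the 22 bases of let-7i-5p the 2 sequences differ at 1 base, while the alignment allowed 1 mismatch. Reads of let-7i-5p can thus be listed under let-7j, and the counts do not separate the 2. The call of let-7j was not kept with reads of 21 nt or more, where the log2 ratio was -0.84. Nor was it kept with TMM or median-of-ratios scaling, at -0.85 and -0.62.

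Let-7k and miR-98-5p, also called higher, rested on the shortest reads. Let-7k had 395 reads in EVs and 25 in cells, or 54.3-fold higher in EVs (36.2 to 84.9), and 98.7% of the EV reads and 92.0% of the cell reads were 18 nt long. Its annotated sequence has 19 bases, and 0 reads of 21 nt or more were listed for it in either library. Within the first 18 bases it differs from let-7b-5p and from let-7e-5p at 1 base each, while the alignment allowed 1 mismatch. MiR-98-5p had 265 reads in EVs and 241 in cells (3.78-fold, 3.16 to 4.52), with 90.9% of the EV reads and 15.4% of the cell reads at 18 nt. It differs from let-7a-5p at 1 of the first 18 bases, and at a minimum of 21 nt its counts were 21 in EVs and 204 in cells (log2 ratio -1.05).

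The miR-125 miRNAs, mammalian relatives of worm lin-4, were higher in EVs on the 5' arm. MiR-125a-5p had 622 reads in EVs and 446 in cells, or 4.79-fold higher in EVs (4.24 to 5.42), and stayed higher with reads of 21 nt or more (558 in EVs, 438 in cells, log2 ratio 2.55). MiR-125b-5p had 2643 reads in EVs and 3690 in cells, or 2.46-fold higher in EVs (2.34 to 2.59). In EVs 70.6% of its reads were 18 nt long, against 0.271% in cells, and at a minimum of 21 nt it had 488 in EVs and 3487 in cells, a log2 ratio of -0.63. Its higher call was also not kept when divided by genome-aligned reads, at 0.64 on the log2 scale. The 2 sequences differ at 7 of 22 bases, 5 of them among the first 18. MiR-125b-1-3p had a log2 ratio of 0.55 and was neither.

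All 3 compared miR-181 miRNAs, known from lymphocyte and vascular biology, were higher in EVs, against 16.8% of all compared miRNAs. Each of the 3 reached 50 reads in the EV library alone, so the minimum itself favoured a higher call. The list has 6 members with a read in either library. Those not compared were miR-181c-3p (1 read in EVs, 20 in cells), miR-181c-5p (2 in EVs, 1 in cells) and miR-181a-1-3p (2 in EVs, 0 in cells). MiR-181a-5p had 342 reads in EVs and 23 in cells, or 51.1-fold higher in EVs (33.5 to 81.7). MiR-181b-5p had 73 in EVs and 44 in cells (5.70-fold, 3.87 to 8.49). MiR-181d-5p had 68 in EVs and 43 in cells (5.43-fold, 3.66 to 8.16). In EVs these reads ended early: 89.8%, 82.2% and 82.4% were 19 nt long, whereas in cells each was most often 23 nt long. With reads of 21 nt or more miR-181a-5p had 9 in EVs and 22 in cells, and none of the 3 reached 50 reads.

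Outside these families the high end was led by miR-122-5p, the dominant miRNA of liver cells. It had 1092 reads in EVs and 1 in cells, and with 1 cell read its ratio of 3752 has an interval from 672 to 148348. Of its EV reads, 91.7% were 21 nt long and 0.275% were 18 nt. Other miRNAs of the liver and blood list had few reads: miR-486-5p had 31 in EVs and 2 in cells, and miR-451a, a red cell miRNA, had 9 in EVs and 0 in cells. The list as a whole summed to 1132 reads in EVs and 3 in cells.

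MiR-10a-5p and miR-10b-5p, which lie within Hox gene clusters, had 62 and 66 reads in EVs and 6 each in cells. They differ at 1 of 23 bases, and a read can be listed under both names. The ratios were 35.5 (15.4 to 100.5) and 37.8 (16.5 to 106.7). With reads of 21 nt or more they had 31 and 33 reads in EVs and 6 each in cells. The miR-196 miRNAs, also of Hox clusters, lay below 0, with log2 ratios of -1.74 for miR-196a-5p and -1.63 for miR-196b-5p, and were neither, although both were lower when divided by genome-aligned reads.

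MiR-128-3p, abundant in brain, had 76 reads in EVs and 35 in cells, or 7.46-fold higher in EVs (4.94 to 11.5). MiR-22-3p had 315 reads in EVs and 250 in cells, or 4.33-fold higher in EVs (3.66 to 5.13). MiR-1949 had 93 in EVs and 6 in cells, or 53.3-fold higher in EVs (23.6 to 149). These 3 with miR-122-5p and miR-125a-5p were the 5 miRNAs called higher under every alternative length minimum, denominator, scaling and added count tried. Of the 5, miR-122-5p, miR-128-3p and miR-1949 reached the read minimum in the EV library alone, so the minimum itself favoured their higher calls. MiR-22-3p and miR-125a-5p reached it in both libraries. MiR-148a-3p (1194 reads in EVs, 1251 in cells, 3.28-fold, 3.03 to 3.55) was higher too, while its relatives miR-152-3p and miR-148b-3p were neither, with log2 ratios of 0.72 and -1.04. The remaining higher miRNAs were miR-423-5p (3.68-fold), miR-690 (3.47-fold), miR-191-5p (2.42-fold) and miR-5099. The calls of miR-148a-3p, miR-423-5p, miR-690 and miR-191-5p were not kept with genome-aligned reads as the denominator, at log2 ratios of 1.06, 1.22, 1.14 and 0.62.

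Entries whose status as miRNAs has been questioned formed a list, drawn up with their short reads known, of which 4 of 6 were higher and 2 lower. The shares over all compared miRNAs were 16.8% and 38.2%. The list includes let-7k, let-7j and miR-1949. MiR-5099 had 2112 reads in EVs and 31 in cells, or 234-fold higher in EVs (164 to 345), but none of these reads reached 21 nt in either library and 73.0% of the EV reads and 61.3% of the cell reads were 18 nt. MiR-690 had 42 reads of 21 nt or more in EVs and 11 in cells, too few to compare. MiR-6240 was lower, with 16 reads in EVs and 200 in cells (3.64-fold, 2.19 to 6.49), a call that was not kept with TMM (log2 ratio -1.52) or median-of-ratios scaling (-1.28).

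The miR-17-92 clusters stood at the opposite end. Of 11 compared members of the list of the miR-17-92 clusters and their paralogs, 8 were lower, none was higher and 3 were neither, with a median log2 ratio of -2.50. Over all compared miRNAs 38.2% were lower and 16.8% higher. MiR-106a-5p (50 reads in EVs, 762 in cells) differs from miR-17-5p at 1 of 23 bases. A read can thus be listed under both, so their calls are not independent. The 5 miRNAs with the seed AAAGUGC were all lower. MiR-20a-5p, the most abundant, had 130 reads in EVs and 2530 in cells (5.66-fold lower, 4.75 to 6.81). MiR-17-5p had 54 in EVs and 792 in cells (4.27-fold, 3.24 to 5.73), and miR-93-5p 32 in EVs and 1022 in cells (9.29-fold, 6.54 to 13.7). MiR-106b-5p was lowest of the list, with 3 reads in EVs and 301 in cells (29.2-fold, 9.90 to 142). Nearly all these reads kept full length in EVs: 23 nt was the most common length of miR-20a-5p in both libraries, with 97.7% of EV reads and 97.8% of cell reads.

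MiR-18a-5p (4 reads in EVs, 179 in cells), miR-19a-3p (9 in EVs, 414 in cells) and miR-19b-3p (12 in EVs, 472 in cells) were lower as well, between 11.4-fold and 13.4-fold. MiR-92a-3p, from the same transcript, was neither, with 49 reads in EVs and 64 in cells and a ratio of 2.63 (1.78 to 3.88). It was called higher with TMM (log2 ratio 1.71) and with median-of-ratios scaling (1.94), where the list had 1 higher member and 8 lower. It shares the seed AUUGCAC with miR-25-3p (326 reads in EVs, 2383 in cells, log2 ratio -1.09) and miR-32-5p (1 read in EVs, 112 in cells, log2 ratio -4.45). The AUUGCAC trio thus covered a log2 range of 5.85. With reads of 21 nt or more miR-92a-3p had 12 in EVs and 54 in cells, a log2 ratio of 0.08.

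The list of miR-15, miR-16, miR-103 and miR-107 relatives had 5 of 6 members lower and 1 neither, with a median log2 ratio of -1.97. Over all compared miRNAs 38.2% were lower. MiR-16-5p, known for repressing cell cycle genes, had 6 reads in EVs and 273 in cells (13.2-fold lower, 6.01 to 36.4). MiR-15b-5p had 22 in EVs and 412 in cells (5.45-fold, 3.55 to 8.79). MiR-103-3p and miR-107-3p, which differ at 1 of 23 bases and at none of the first 18, had 368 and 348 reads in EVs and 3565 and 3462 in cells, and were 2.82-fold and 2.90-fold lower. Their calls were not kept with median-of-ratios scaling, at log2 ratios of -0.95 and -0.99. Nor was the lower call of miR-322-5p (6 reads in EVs, 131 in cells), at -2.02, which left 2 of the 6 lower. With reads of 21 nt or more miR-322-5p was not called either, at -1.92.

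The miR-30 family divided by member. MiR-30b-5p had 1 read in EVs and 387 in cells, 113-fold lower with an interval of 20.1 to 4460. MiR-30c-5p had 5 in EVs and 270 in cells (15.7-fold, 6.65 to 48.8), and miR-30e-5p 36 in EVs and 463 in cells (3.74-fold, 2.66 to 5.41). In contrast miR-30a-5p had 266 reads in EVs and 836 in cells (ratio 1.09, 0.949 to 1.26), and miR-30d-5p 282 in EVs and 778 in cells (ratio 1.25, 1.08 to 1.43). MiR-30e-5p and miR-30a-5p share the seed GUAAACA and differ at 1 of 22 bases. The lower call of miR-30e-5p was not kept with median-of-ratios scaling (log2 ratio -1.34).

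Among the smaller families, miR-29a-3p (238 reads in EVs, 2861 in cells) and miR-29c-3p (245 in EVs, 2802 in cells), which repress collagen genes, were 3.50-fold and 3.33-fold lower. MiR-29b-3p was neither at a log2 ratio of -0.51, but 0 of its 28 EV reads and 132 of its cell reads had 21 nt or more, so that with longer reads it was called lower. Both arms of miR-221 were lower, at -1.74 for the 3p and -1.69 for the 5p arm on the log2 scale. MiR-27a-3p, miR-27a-5p and miR-27b-3p were the 3 lower members of the 7 in the miR-23/27/24 list, against 38.2% lower over all compared miRNAs. With median-of-ratios scaling these 3, both miR-221 arms and miR-26b-5p were no longer called, at log2 ratios between -1.34 and -0.72. TMM scaling also dropped the calls of miR-27a-3p (-1.01), miR-27b-3p (-0.96), miR-221-5p (-1.39) and miR-26b-5p (-1.57). With reads of 21 nt or more miR-27a-5p (-1.43) and miR-221-5p (-1.27) were no longer called. The miR-26 miRNAs had unequal ratios. MiR-26b-5p was lower (14 reads in EVs, 183 in cells, log2 ratio -1.88) while miR-26a-5p, which shares its seed, had 594 in EVs and 1543 in cells and was neither (log2 ratio 0.40).

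All 8 compared miRNAs of the miR-466, miR-467 and miR-669 repeat family, many of which come from an intron of Sfmbt2 in the mouse, were lower. Each reached the read minimum in the cell library alone, so the minimum itself favoured a lower call. Over all compared miRNAs 38.2% were lower. The list has 62 members with a read in either library. Summed over these, with shared reads counted under each, it held 0.157% of miRNA alignments in EVs and 0.860% in cells. MiR-467a-5p had the lowest ratio of all, with 1 read in EVs and 407 in cells (118-fold, 21.1 to 4690). The other 7 compared miRNAs had 1 to 3 reads in EVs and 61 to 92 in cells. MiR-669a-5p and miR-669p-5p had equal counts, 2 in EVs and 61 in cells, as did miR-669a-3p and miR-669o-3p with 3 in EVs and 92 in cells. Such pairs can hold the same reads, so the 8 calls are not independent. The calls of miR-669a-5p and miR-669p-5p, which have the fewest cell reads of the 8, were not kept with TMM or median-of-ratios scaling.

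In no list were 44 compared miRNAs, of which 4 were higher, 12 lower and 28 neither, with a median log2 ratio of -0.83. Among the lower, miR-374b-5p had 0 reads in EVs and 64 in cells. It was 6.21-fold lower if the EV count is set at the floor of 3 reads, and its 95% interval begins at 4.90-fold lower. MiR-365-3p had 2 in EVs and 148 in cells (21.5-fold, 5.86 to 179). MiR-210-3p, a miRNA induced by hypoxia, had 3 in EVs and 121 in cells (11.7-fold, 3.92 to 57.7). In a list of its own, miR-9-5p, abundant in the nervous system, had 115 in EVs and 2178 in cells and was 5.51-fold lower (4.57 to 6.71). MiR-340-5p, miR-872-5p, miR-101a-3p and miR-101b-3p were also lower, between 3.01-fold and 7.25-fold. The call of miR-340-5p was not kept with TMM (log2 ratio -1.27), median-of-ratios scaling (-1.04) or reads of 21 nt or more (-1.18), and that of miR-101a-3p was not kept with median-of-ratios scaling (-1.44).

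MiRNAs listed as markers of other cell types were sparse apart from miR-122-5p and miR-9-5p, which went opposite ways. MiR-122-5p had 1092 reads in EVs and 1 in cells, whereas miR-9-5p had 115 in EVs and 2178 in cells. MiR-9-5p was thus found mainly in the library of the 4TO7 cells themselves. The muscle list summed to 16 reads in EVs and 1 in cells, and the fibroblast and smooth muscle list to 16 in EVs and 23 in cells. The leukocyte list summed to 1 read in EVs and 26 in cells, all of miR-155-5p, and the endothelial list to 1 in EVs and 36 in cells. MiR-142-5p, also of leukocytes, had 4 reads in EVs and 1 in cells. It is not in the leukocyte sum because its name did not match the list. Every one of these sums lay below 50 reads in both libraries, and miR-145a-5p and miR-150-5p were at 0 in both. The part of other cell types in the ratios was not tested.

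**Figure D2:**
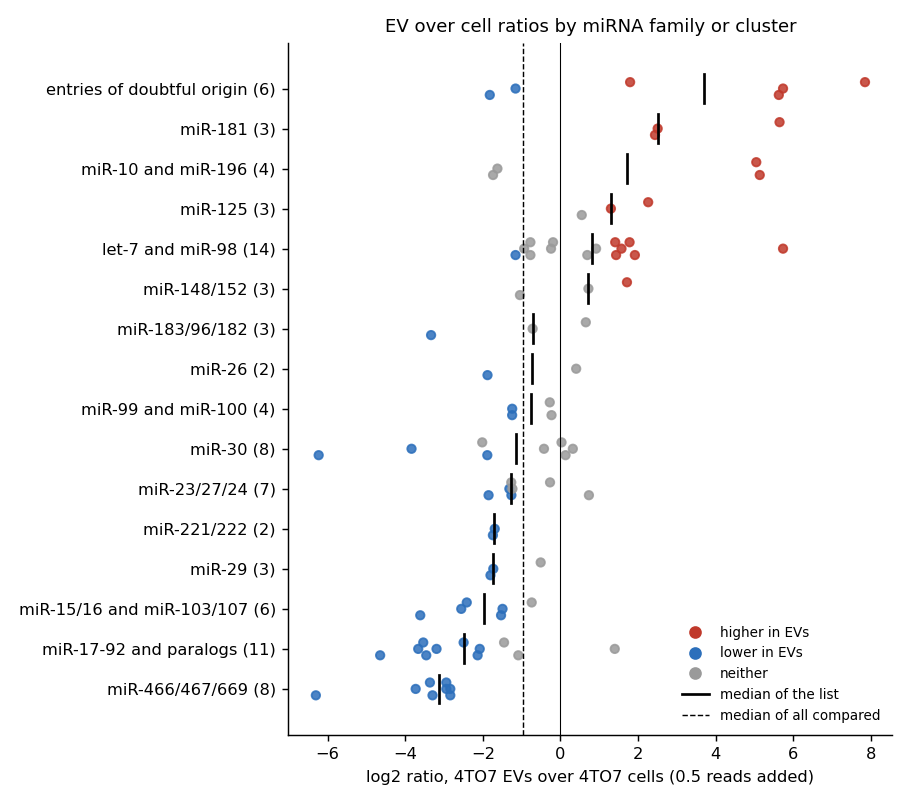
Log2 ratio of 4TO7 EVs over 4TO7 cells for the compared members of each family or list with at least 2, with the number compared in brackets. Each point is a miRNA coloured by call, thick black bars mark the median of the list and the dashed line the median of all 131; the miR-181 members lie to the right of 0 and the miR-466, miR-467 and miR-669 members to the left of -2.

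Neighbouring miRNA genes, which can share a primary transcript, had unequal ratios in several places. RefSeq places 53 of the compared miRNAs in 19 groups of 2 or more genes on the same strand with gaps of at most 10000 bases (GRCm38.p6). The group at chr14:115043671-115044506, the miR-17-92 polycistron, ranged from -3.67 for miR-19a-3p to 1.40 for miR-92a-3p on the log2 scale. At chr5:138165321-138165818 miR-106b-5p had a log2 ratio of -4.65, miR-93-5p of -3.19 and miR-25-3p of -1.09. At chr6:30165918-30169737 miR-96-5p was lower, with 9 reads in EVs and 329 in cells (10.6-fold, 5.54 to 23.5). Its neighbours miR-182-5p (1093 in EVs, 6181 in cells) and miR-183-5p (1185 in EVs, 2590 in cells) were neither, at -0.72 and 0.65. MiR-182-5p was lower with genome-aligned reads (-1.37) and with reads of 21 nt or more (-1.15), and miR-183-5p higher with median-of-ratios scaling (1.19).

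The neighbourhoods that hold let-7, miR-99 and miR-125 genes were split as well. At chr17:17830194-17830879 let-7e-5p and miR-125a-5p were higher, at 1.41 and 2.26, while miR-99b-5p had 1258 reads in EVs and 5236 in cells and a log2 ratio of -0.28. At chr16:77598936-77599750 miR-99a-5p was lower, with 1238 reads in EVs and 10083 in cells (2.37-fold, 2.23 to 2.52), next to let-7c-5p at 1.57, although let-7c-5p also has a second locus on chromosome 15. This was the 1 group of 19 with both a higher and a lower member, and the number was 0 with genome-aligned reads, 2 with TMM and 3 with median-of-ratios scaling. With TMM these were the groups of miR-92a-3p on chromosomes 14 and X. MiR-100-5p, of chromosome 9, differs from miR-99a-5p at 1 of 22 bases. It had 1254 reads in EVs and 10223 in cells and was 2.37-fold lower as well (2.24 to 2.52). With 1 mismatch allowed, a read can be listed under both miR-99a-5p and miR-100-5p. The reads behind the split at chr16:77598936-77599750 therefore need not come from there. The lower calls of miR-99a-5p and miR-100-5p were not kept with TMM or median-of-ratios scaling.

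The 2 arms of a hairpin could be compared for 12 hairpins. For miR-31, which restrains metastasis in human breast cancer models, the 5p arm had 88 reads in EVs and 531 in cells (log2 ratio -0.81), whereas the 3p arm had 1 in EVs and 250 in cells (-5.60). The 5p arm was thus 98.9% of the miR-31 reads in EVs (93.9% to 99.97%) and 68.0% in cells (64.6% to 71.3%). For miR-106b the difference ran the other way, with the 5p arm at 7.32% of reads in EVs (1.54% to 19.9%) and 45.4% in cells (41.6% to 49.3%). In miR-423 the 5p arm was 58.8% in EVs and 40.9% in cells. The arms of miR-99b, miR-30a and miR-221 differed by 0.05, 0.10 and 0.05 on the log2 scale between 5p and 3p.

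Mean read length was shorter in EVs for 47 of the 60 miRNAs with 50 or more reads in both libraries, with a median of 21.2 nt in EVs and 21.8 nt in cells. Among sense miRNA alignments, 18 nt was 17.8% in EVs and 1.29% in cells, 22 nt was 52.6% in EVs and 65.5% in cells, and 23 nt was 3.15% in EVs and 10.6% in cells. Of these 60 miRNAs, 42 had a larger share of 18 nt reads in EVs. For 29 of them the EV interval lay wholly above the cell interval, and for 0 the reverse held. The median share was 5.68% in EVs and 0.395% in cells. The missing bases were at the 3' end: 98.2% of alignments in EVs and 98.5% in cells began at the first annotated base and the most common start was equal for 59 of the 60.

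MiRNAs differed widely in how many of their reads were short. Apart from miR-98-5p and miR-125b-5p, the largest gaps were those of miR-23b-3p (52.4% at 18 nt in EVs, 2.58% in cells) and miR-23a-3p (50% in EVs, 2.51% in cells). MiR-7b-5p and miR-7a-5p, let-7d-5p and miR-191-5p followed with 32% to 42.4% in EVs and 0.375% to 2.27% in cells. By comparison miR-17-5p, miR-20a-5p and miR-26a-5p had 0 reads of 18 nt in EVs out of 54, 130 and 594. For miR-182-5p the most common length was 19 nt in EVs (33.7%) and 25 nt in cells (63.5%). The most common length was shorter in EVs for 15 of the 60 miRNAs, equal for 42 and longer for 3.

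**Figure D3:**
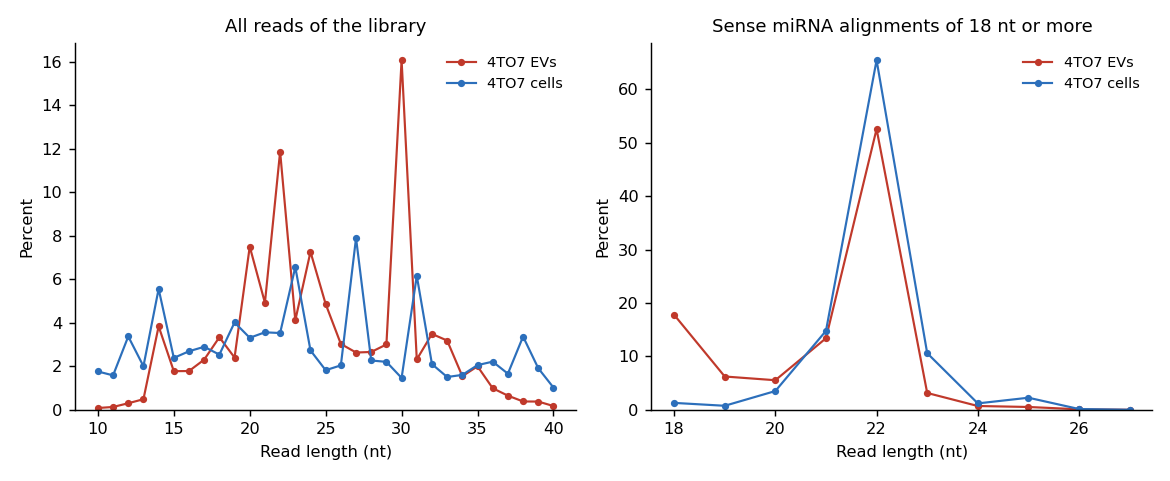
Percent of reads by length in 4TO7 EVs and 4TO7 cells, for all reads of 10 to 40 nt (left) and for sense miRNA alignments of 18 nt or more (right). The EV line peaks at 30 nt among all reads, and among miRNA alignments it stands above the cell line at 18 nt, with 17.8% in EVs and 1.29% in cells.

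Part of the higher calls changed with the minimum read length. With reads of 21 nt or more, 115 miRNAs could be compared, of which 16 were higher (13.9%) and 49 lower (42.6%), with a median log2 ratio of -1.11. Of the 22 miRNAs higher at 18 nt or more, 14 could be compared, 11 of them were still higher and 12 kept their sign, the exceptions being miR-125b-5p and miR-98-5p. Of the 50 lower, 46 could be compared, all 46 kept their sign and 41 were still lower. Let-7a-5p, miR-151-3p and the miR-378 entries miR-378a-3p, miR-378c and miR-378d were neither at 18 nt or more and higher at the longer minimum, let-7a-5p with 6205 reads in EVs and 12656 in cells (log2 ratio 1.18). Of these, let-7a-5p, miR-151-3p and miR-378d were also higher with median-of-ratios scaling.

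**Figure D4:**
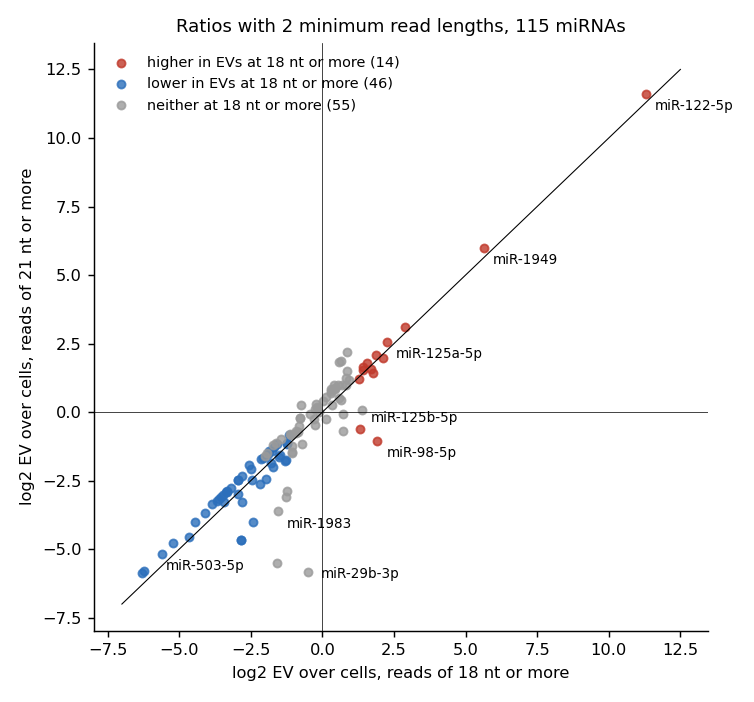
Log2 ratio of 4TO7 EVs over 4TO7 cells with reads of 21 nt or more (y axis) against reads of 18 nt or more (x axis) for the 115 miRNAs comparable at both, with 0.5 reads added. Points are coloured by their call at 18 nt or more; miR-125b-5p and miR-98-5p cross below 0 at the longer minimum, to -0.63 and -1.05.

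The mature sequences were searched for what the calls share beyond family. Median GC content was 45.5% over 19 higher miRNAs, 40.9% over 42 lower, 49% over 50 neither and 52.2% over all 1679 mature names in RefSeq. The tetramers GGAG and CCCU, described in human cells as elements of vesicle-sorted miRNAs, were looked for on the mature strand. GGAG occurred in 2 of 19 higher (let-7k and let-7e-5p), in 0 of 42 lower and in 7 of 50 neither miRNAs, against 14.2% of all. CCCU occurred in 4, 1 and 4 of the same sets, against 11.4% of all, and the 4 were the near-identical miR-10a-5p and miR-10b-5p and the related miR-125a-5p and miR-125b-5p. Of the 19 seeds shared by 2 or more compared miRNAs, which cover 57 miRNAs, 0 had both a higher and a lower member. That count was 1 under each other scaling: AUUGCAC with TMM and with median-of-ratios scaling, and GAGGUAG with genome-aligned reads. Several members of these groups differ at 1 base or none and can hold the same reads, so like calls were in part fixed in advance. Let-7a-1-3p and let-7c-2-3p have the same sequence and the same counts, 12 in EVs and 73 in cells. Let-7j, called lower, is outside the GAGGUAG group only through its RefSeq seed.

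Antisense alignments of 18 nt or more were few, 567 in EVs (1.08% of sense plus antisense) and 1367 in cells (0.764%). MiR-3074-5p, which lies antisense to miR-24, held 336 of them in EVs and 1024 in cells.

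Most small RNA of both libraries lay outside miRNAs. All reads of 29 to 31 nt made up 21.4% in EVs and 9.83% in cells, and 20 to 24 nt 35.7% in EVs and 19.7% in cells. The genome clusters carry mm9 coordinates, and labels were taken from the authors' tables of the 4T1 libraries where a cluster overlapped. Of the 465 EV clusters 129 (27.7%) overlapped a cell cluster, and of the 1171 cell clusters 133 (11.4%) overlapped an EV cluster. The smallest cluster listed had 1305 alignments in EVs and 1304 in cells, which is 0.0252% of genome-aligned reads in EVs and 0.0116% in cells, so a cluster that is not listed may still have reads. A read could count at up to 6 positions, so clusters of repeated RNAs share reads.

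The largest EV clusters carried the label U2 snRNA, a small nuclear RNA of the spliceosome. The 8 clusters labelled U2 snRNA held 12.1% to 20.1% of genome-aligned reads in EVs, each counting shared reads. The 4 of them that had a cell cluster held 19.3% each in EVs and 0.0133% to 0.0134% in cells. At chr11:101503153-101503202 this was 996866 alignments in EVs. Another 3 clusters labelled snRNA held 12.1% each in EVs and were not listed in cells. Clusters labelled Rdx and B1 repeat, at chr9:51856819-51856843 and chr7:86688720-86688744, held 4.14% and 3.79% in EVs against 0.0173% and 0.0153% in cells.

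Of the 10 largest cell clusters, 2 carried the label Erf1, 4 a ribosomal label, 1 the repeat label ERVL and 3 none. The label Erf1 is the authors' and was not checked against an annotation of the build. Of the 4 EV clusters labelled Erf1, 3 held 1.30%, 0.685% and 0.426% of genome-aligned reads in EVs, and the cell cluster that they overlap, at chr17:39984432-39985056, held 12.0% in cells. Those 3 EV clusters lay mainly on the opposite strand to the cell cluster. A 25 nt EV cluster held 0.0789% in EVs, and the cell cluster around it, labelled small-subunit rRNA at chr6:3151276-3151575, held 10.3% in cells. The cluster labelled mir-21 held 0.0971% in EVs and 1.55% in cells, a log2 ratio of -3.99 per genome-aligned read.

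Of the 129 EV clusters with a cell counterpart, 42 were more than 2-fold higher in EVs (32.6%), 62 more than 2-fold lower (48.1%) and 25 within 2-fold, with a median log2 ratio of -0.74. Divided by the covered length of each cluster, 43 were higher and 49 lower, with a median of -0.35. These values compare 2 libraries without a test, and the clusters of a pair were called on their own libraries, with unequal widths and strands. Among the 87 pairs with the same main strand, a split made after seeing the data, 39 were higher and 32 lower, with a median log2 ratio of 0.46.

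Overlapping clusters often came from opposite strands. In 42 of the 129, with a median log2 ratio of -2.47, the main strand in EVs was the other strand than in cells, and in 33 of these at least 90% of alignments lay on opposite strands. They made up 30 of the 62 lower clusters, 3 of the 42 higher and 9 of the 25 within 2-fold. At chr17:39984973-39985072 the forward strand had 0.700% of alignments in EVs, and 99.997% in the overlapping cell cluster. At chr9:123371157-123371206, labelled large-subunit rRNA, it had 0.360% in EVs and 99.99% in the overlapping cell cluster. For these positions the EV and cell values therefore count different strands, and the ratio of such a pair does not compare the same RNA.

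**Figure D5:**
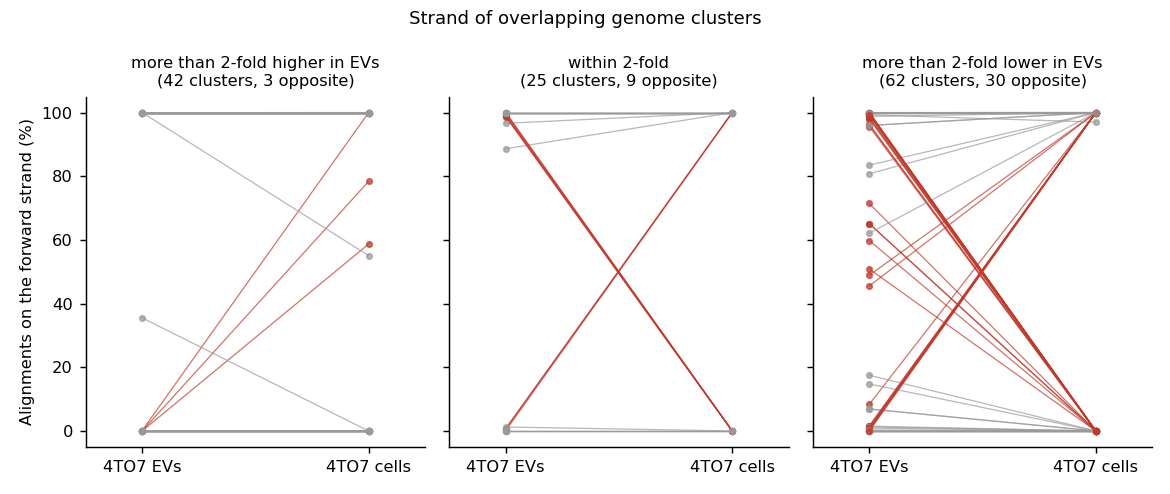
Percent of alignments on the forward strand in 4TO7 EVs (left of each panel) and in the overlapping 4TO7 cell cluster (right) for 129 EV clusters, split by their EV over cell ratio per genome-aligned read. Each line joins an EV cluster with its cell counterpart, and red lines mark the clusters with opposite main strands, 3 of 42 higher, 9 of 25 within 2-fold and 30 of 62 lower.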

How the data were processed

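Small RNA was sequenced from 4TO7 EVs and 4TO7 cells, with 1 library each, and from the same sources of the 4T1 line, used here for cluster labels and for a comparison of ratios between the lines. The miRNA tables that the authors deposited hold raw counts of alignments per mature miRNA, strand, start and length, with lengths of 10 nt or more. The cluster tables that the authors deposited hold counts of alignments per strand and genome region, and the deposited length tables hold counts of reads per length. The submitters' processing notes name cutadapt, Bowtie, bedtools and the build mm9; tool versions are not given in the sources used here. Per the headers of the deposited alignment logs, Bowtie allowed 1 mismatch and reported up to 6 genome positions or 10 mature miRNAs per read.

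For each mature miRNA the sense alignments of at least 18 nt were added up, and the total over all miRNAs served as library size. Ratios of RPM had exact conditional binomial (Clopper-Pearson) 95% intervals, over miRNAs with 50 or more reads in either library. Shares had exact Clopper-Pearson intervals. Log2 ratios had 0.5 reads added. The calls were tested on simulated counts, drawn without spread between preparations and without shared reads, which checks the counting interval only. Named miRNAs were the 10 highest and the 10 lowest ratios among called miRNAs, the 10 most abundant of each library, the compared members of the lists, both arms of hairpins, the 10 largest differences in 18 nt share and the largest clusters of each library and label; others (miR-22-3p, miR-210-3p, miR-151-3p, miR-3074-5p, miR-340-5p, miR-872-5p, the miR-101 and the miR-378 entries) were picked after their values were seen. The members, the lists, the rule for calls and this naming rule were chosen with earlier results of these data known, and the grouping by genome position and the tally of clusters by strand were added after seeing the data. Alternatives were minimum lengths of 21 and 16 nt, genome-aligned reads as denominator, TMM (edgeR 4.0.16 in R 4.3.3) and median-of-ratios scaling, minimums of 10 reads and 1 read, 5 reads added, and summing by seed. Coordinates of clusters are mm9; sequences and positions of miRNAs are from RefSeq (GRCm38.p6), read by name. Tables were made with Python 3.11.15, pandas 2.3.3, numpy 2.4.6 and scipy 1.17.1.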

Additional observations from a re-analysis of the deposited data

Results flagged for a closer look

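The EV over cell ratio lay on opposite sides of 1 in the 2 lines for 12 of the 129 miRNAs compared in both, with intervals that did not reach 1 in either line. Each line has 1 library per group, so the difference was not tested over samples. The side of 1 depends on the scaling: miR-24-3p turned to 0.04 with TMM and 0.27 with median-of-ratios scaling of the 4TO7 libraries, and with genome-aligned reads miR-532-5p turned to -0.22, miR-26a-5p to -0.25 and miR-125b-1-3p to -0.11, with the 4T1 ratios left as they were. The EV/cell log2 ratios of miR-10b-5p and miR-10a-5p were 5.14 and 5.05 in 4TO7 and -0.59 and -0.65 in 4T1. In 4TO7 they had 66 and 62 reads in EVs and 6 each in cells. In 4T1 they had 207 and 192 reads in EVs and 3260 and 3147 in cells, so the cell counts differed most. Let-7e-5p had 1.41 in 4TO7 and -0.38 in 4T1. MiR-92a-3p had 1.40 in 4TO7 and -0.76 in 4T1. MiR-423-3p had 0.83 in 4TO7 and -1.82 in 4T1, and miR-125b-1-3p 0.55 in 4TO7 and -2.24 in 4T1. MiR-532-5p had 0.43 in 4TO7 and -0.25 in 4T1, and miR-26a-5p 0.40 in 4TO7 and -0.91 in 4T1. In the other direction, miR-6240 had -1.82 in 4TO7 and 1.16 in 4T1, and miR-24-3p -0.27 in 4TO7 and 1.56 in 4T1. MiR-1981-5p had -0.91 in 4TO7 and 0.54 in 4T1, and miR-182-5p -0.72 in 4TO7 and 0.21 in 4T1. Of the 12, miR-10a-5p, miR-10b-5p and let-7e-5p were called higher and miR-6240 lower in 4TO7. The call of let-7e-5p was not kept with genome-aligned reads, and that of miR-6240 was not kept with TMM or median-of-ratios scaling.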

How the results depend on the processing

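No paired analysis was possible because each group has 1 library. The higher miRNAs numbered 13 with genome-aligned reads as denominator, 37 of 228 with a minimum of 10 reads, 46 of 489 with a minimum of 1 read and 13 of 99 groups summed by seed, against 22. The lower miRNAs numbered 31 with median-of-ratios scaling, 54 with a minimum of 10 reads and 54 with a minimum of 1 read, against 50. The median log2 ratio of -0.96 was -1.11 with reads of 21 nt or more, -1.20 with 16 nt or more, -1.62 with genome-aligned reads, -0.65 with TMM, -0.42 with median-of-ratios scaling, -1.10 with a minimum of 10 reads and -0.0936 with a minimum of 1 read. Clusters with at least 2608 alignments, which is 2 times the listing minimum, overlapped in 84 of 334 in EVs and 87 of 793 in cells. In shared pairs with the same main strand, a setting chosen after seeing the data, 39 clusters were higher (42 over all pairs), 32 lower (62) and the median turned to 0.46 (-0.74). With reads of 21 nt or more the log2 ratios of miR-125b-5p and miR-98-5p turned to -0.63 and -1.05, and with 16 nt or more that of miR-26b-5p to 0.04. The let-7 median turned to -0.22 and -0.78 with minimums of 10 reads and 1 read. The miR-10 and miR-196 median turned to -1.16 with 21 nt and -0.54 with a minimum of 1 read. The miR-148 and miR-152 median turned to -0.0646 with 21 nt, -1.04 with a minimum of 10 reads and -1.59 with 1 read, and the miR-26 median to 0.98 with 21 nt and 0.056 with 16 nt. The cause of these turns was not tested, beyond the members that each setting adds or drops. Under all 6 alternatives run per miRNA, 5 higher and 29 lower miRNAs kept their call. Depth limits the EV side most: a miRNA below 58.0 RPM there cannot be told from 0, and 1 library per group leaves the spread between preparations unknown.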
